A study of Mus musculus with 8 samples.

Results

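The protocadherin genes were followed in the medial prefrontal cortex (mPFC) of adult mice that had been exposed to maternal separation. All gene probes on the array whose gene name began with Pcdh were taken, which gave 64 probes for 47 genes among 55681 probes for 34797 gene names. Of the 47 genes, 7 belonged to the Pcdha cluster, 22 to the Pcdhb cluster and 6 to the Pcdhg cluster, and 12 were non-clustered. Each gene was described by its brightest probe, which was the probe with the highest mean over the 8 arrays. By symbol, these were 47 of the 69 protein-coding protocadherin genes in RefSeq (GRCm38.p6). All 22 Pcdhb genes and all 12 non-clustered genes had a probe of their own name, against 7 of 14 Pcdha genes and 6 of 21 Pcdhg genes.

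Protocadherins are the largest group of the cadherin superfamily, and they mediate recognition and adhesion between cells, above all between neurons. The Pcdha, Pcdhb and Pcdhg genes lie in tandem in one chromosomal region. Each variable exon has its own promoter, and single neurons express different combinations of them, chosen largely at random with the help of CTCF, cohesin and DNA methylation. Variable exons of Pcdha and Pcdhg are spliced to constant exons shared by the cluster, while Pcdhb genes have no constant exon. Matching combinations on 2 membranes let a neuron recognise its own branches. Non-clustered protocadherins are scattered over the genome and are grouped by their cytoplasmic motifs into delta-1 and delta-2 families, which act in axon growth, synapse formation and the sorting of neurons.

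The mice were 8 males of the inbred strain C3H/HeN, with no genetic modification, 4 in the MS group and 4 in the control group. MS pups were taken from the dam every day between postnatal day 2 and postnatal day 14, and the dam was put under chronic unpredictable stress meanwhile, while control litters were left undisturbed. Both groups were weaned at postnatal day 21, raised to adulthood, trained in operant tests for palatable food and killed after a period without food, and these steps were shared by all 8 animals. Total RNA (200 ng) of each dissected mPFC was labelled and put on 1 one-colour Agilent array, so every array was 1 animal. The MS animals are named here by their label numbers 5.3, 7.1, 7.2 and 7.6, and the control animals by 6.2, 8.5, 8.2 and 8.4. The first part of the number is shared by 7.1, 7.2 and 7.6 and by 8.5, 8.2 and 8.4, but never across groups. The labels do not say what it stands for. Whole litters were assigned to a group, so animals of a group may not be independent. The errors given here treat each animal as independent.

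Values are log2 signals from which each array's own 75th percentile was taken off, so that 0 is the level of the probe at that percentile. The percentile itself was between 588 and 892 signal units, and between 61.6% and 68.9% of probes were well above background on each array, a mark the scanner software gave to spots brighter than the local background. All 8 cortical excitatory neuron markers examined were well above background on all 8 arrays. Of 6 olfactory bulb markers, 5 were tested (Tbx21, Th, Trh, Sp8 and Doc2g), and their mean deviation from the average of 8 arrays was 1.88 in MS 7.6, 1.16 in control 8.5 and 3.11 in control 8.4, against values between -1.41 and -0.87 in the other 5 animals. The 7 tested striatal projection neuron markers were at 1.44 in control 8.4 and otherwise lay between -0.42 and -0.03. Cluster results are therefore also given without these 3 animals, by a choice made after the marker values were seen. The same was done for some, but not all, of the genes that were extreme in them. A gene given without such a value may still depend on these animals. The 5 animals then left were 3 MS and 2 control animals.

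Most protocadherins were detected. In all 8 animals, 41 of the 47 genes were well above background, with 6 of 7 Pcdha genes, 19 of 22 Pcdhb genes, 4 of 6 Pcdhg genes and 12 of 12 non-clustered genes. Pcdhac1, 1 of the 2 C-type genes of the Pcdha cluster, and Pcdhga5 were not well above background on any array. Pcdhb1 was above background on 1 control array only, and Pcdhgb1 on 2 MS and 3 control arrays. These 4 genes were not tested. The other 43 genes passed a filter which asked for all 4 arrays of at least 1 group, and 34098 probes of all kinds passed it.

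No protocadherin gene differed between MS and control mPFC at an adjusted p under 0.05, and over all genes the share of such calls was 0% (limma, Benjamini-Hochberg over 34098 probes). The smallest adjusted p of the 43 genes was 0.9996. At an unadjusted p under 0.05 there was 1 gene, Pcdhb8, beside 1.92% of the 23451 genes tested by their brightest probe (1.05% of them, like Pcdhb8, with a lower level in MS). In no protocadherin did the 4 MS values lie wholly above or wholly below the 4 control values, while this was so for 1.33% of all genes. The difference was positive in 17 genes and negative in 26, and its median was -0.05 on the log2 scale, beside 0.01 over all genes, of which 54.5% had a positive difference. The 95% interval of the difference included 0 in 42 of 43 genes, and it lay within a change of 1 on the log2 scale in 42 of 43, the exception being Pcdhb19.

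**Figure D1:**
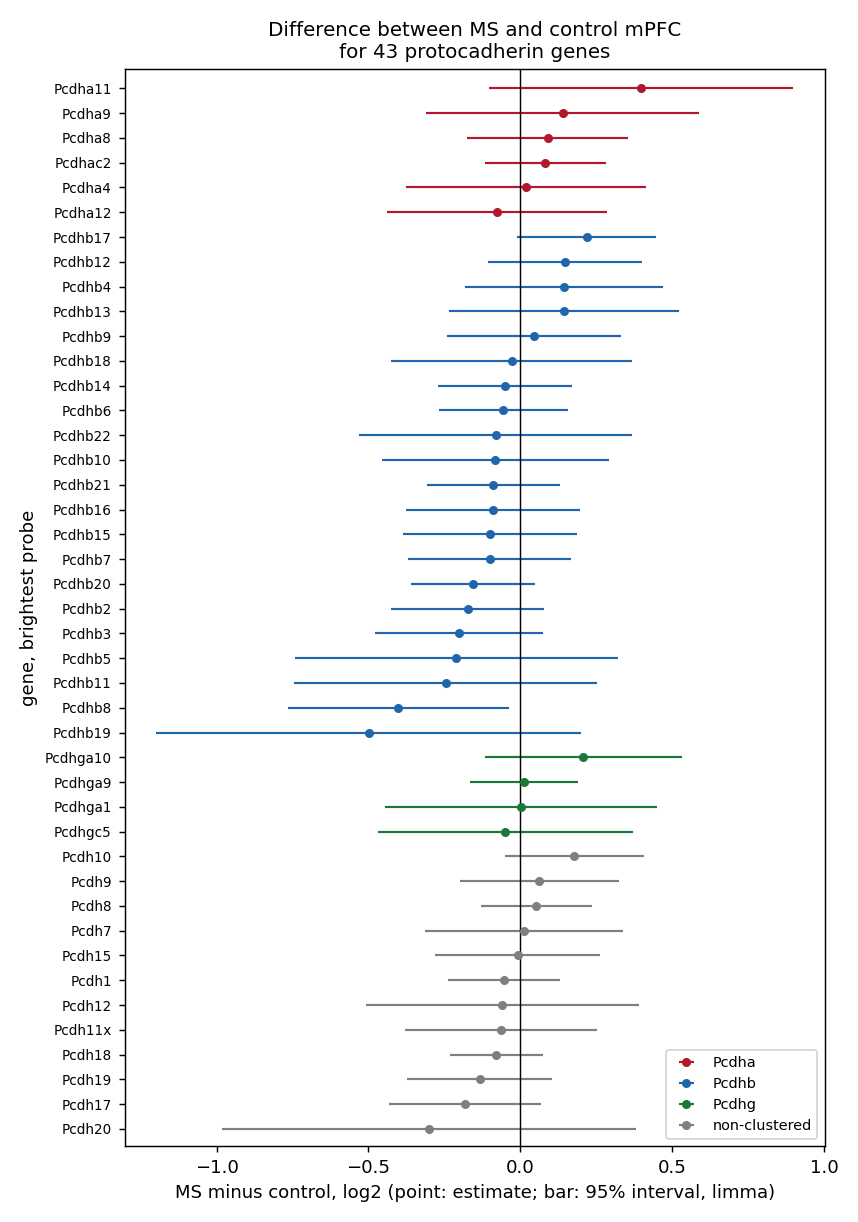
MS minus control difference on the log2 scale (horizontal axis) for the 43 tested protocadherin genes, listed by cluster on the vertical axis. Points are limma estimates and bars 95% intervals, and the bar of Pcdhb8 alone lies clear of 0.

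The Pcdha cluster, which encodes the alpha isoforms of neuronal membranes, showed positive differences in 5 of 6 tested genes, with a median of 0.09. Its probes lay on chromosome 18 between 37114742 and 37347294 (mm9, as the array files give them). The largest difference was that of Pcdha11, with values of -2.48, -2.77, -2.46 and -2.93 in MS animals, against -2.97, -2.69, -2.84 and -3.72 in control animals. The lowest of these 8 values was that of control 8.4, and the groups overlapped. The difference was 0.40 ± 0.22 (SE, n = 4 each), with a 95% interval of -0.10 to 0.90.

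Pcdhac2 is a C-type gene, of the class that neurons tend to express from both alleles rather than by random choice. Its brightest probe lay at the far end of the cluster, where the constant exons of the alpha transcripts lie, and was listed by the array for 4 RefSeq transcripts. It read 3.29, 3.35, 3.45 and 3.22 in MS animals and 3.22, 3.21, 3.39 and 3.14 in control animals, a difference of 0.08 ± 0.09 (SE, n = 4 each). The 2 groups overlapped over most of their range, and the 95% interval ran from -0.12 to 0.28. A second probe of Pcdhac2, listed for its own transcript alone, differed by 0.21 ± 0.18. The brightest probe of Pcdha8 was also listed for 4 transcripts and differed by 0.09 ± 0.12, and its own second probe differed by 0.10 ± 0.14. Signals of such shared probes cannot be given to one isoform.

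At the brightest probes, control 8.4 was the lowest of the 8 animals in all 6 tested Pcdha genes, with a median deviation of -0.36 from the mean of each gene. At second probes, control 8.4 was lowest for Pcdhac2 (-2.37) but not for Pcdha8. There it read -2.18, and control 6.2 was lowest at -2.69. Over all genes, 31.9% were lowest in that same animal. The 6 genes were not independent of each other here, since 3 of their probes were listed for more than 1 transcript. Without control 8.4, the Pcdha median was 0.02 and 4 of 6 genes had a positive difference, beside 49.2% of all probes. The control mean of these genes had to rise without their lowest animal, so nothing is concluded from this change. Leaving out MS 5.3 instead gave a median of -0.0037, with 3 genes positive and 3 negative. In the 5 animals low in bulb markers, 5 of 6 genes were positive with a median of 0.07, beside 54.3% of all probes. Pcdha11 differed there by 0.34 with no overlap between the groups, as was so for 11.5% of all probes in that smaller comparison. Its unadjusted p there was 0.0447 and its adjusted p 0.99998 in limma. Striatal and bulb markers were highest in control 8.4. The mean of the cortical excitatory markers was lowest there (-0.40, against -0.04 to 0.19 in the other 7), although Bcl11b was highest there and Tbr1 was not lowest. The mean of the 7 interneuron markers was highest there (0.15, against -0.15 to 0.07), but its members were split. Gad1, Gad2 and Slc32a1 were highest in control 8.4, Pvalb and Vip were lowest, and Sst and Lhx6 were neither. The part of this in the Pcdha values was not tested. In tissue RNA, fewer cells of a type and less RNA per cell cannot be told apart.

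The Pcdhb cluster, made of single-exon genes whose products lack the shared cytoplasmic domain, had a negative difference in 16 of 21 tested genes, with a median of -0.09. Its probes lay on chromosome 18 between 37427011 and 37680728 (mm9). Each of its brightest probes was listed for 1 RefSeq transcript, although the genes are close paralogs and cross-hybridisation between them was not tested. In this cluster, Pcdhb8 read -3.95, -3.85, -4.57 and -4.19 in MS animals, against -3.95, -3.64, -3.76 and -3.59 in control animals. MS 7.2 had the lowest value, and 2 of 4 MS animals stood within the range of the control group. The difference was -0.40 ± 0.16 (SE, n = 4 each), or 0.757-fold, with an unadjusted p of 0.0338 and an adjusted p of 0.9996 in limma. It was -0.14 with normexp background correction and -0.23 in the authors' table, and was not called in either.

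Pcdhb17 gave the next smallest p in the cluster, in the opposite direction. Its values were -0.10, -0.21, -0.11 and -0.07 in MS animals and -0.17, -0.57, -0.23 and -0.41 in control animals, so that 3 of 4 MS values were above all control values. The difference was 0.22 ± 0.10 (SE, n = 4 each), with an unadjusted p of 0.0597 and an adjusted p of 0.9996 in limma. Pcdhb20 read 0.42, 0.58, 0.47 and 0.56 in MS animals, against 0.56, 0.58, 0.67 and 0.85 in control animals, a difference of -0.16 ± 0.09. Its highest value was again that of control 8.4.

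Pcdhb19 varied most of all Pcdhb genes. It read -5.77, -4.51, -4.77 and -5.92 in MS animals, against -4.65, -4.58, -4.85 and -4.90 in control animals. Only 2 of the 4 MS arrays were well above background for it, and the 2 low MS values carried the difference of -0.50 ± 0.31 (SE, n = 4 each). It was -0.03 with normexp background correction and -0.16 in the authors' table. The other Pcdhb genes differed by -0.25 to 0.15, with Pcdhb11 lowest and Pcdhb12 highest.

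Pcdhb3, singled out here for its spots, was the 1 protocadherin whose probe was printed 10 times on each array. It read -1.63, -1.89, -1.32 and -1.76 in MS animals, against -1.46, -1.53, -1.38 and -1.41 in control animals, a difference of -0.20 ± 0.12 (SE, n = 4 each). The MS values ran wider than the control values and enclosed them. Spots of the same array differed by an SD of 0.10 on average, and animals of the same group by an SD of 0.18.

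**Figure D2:**
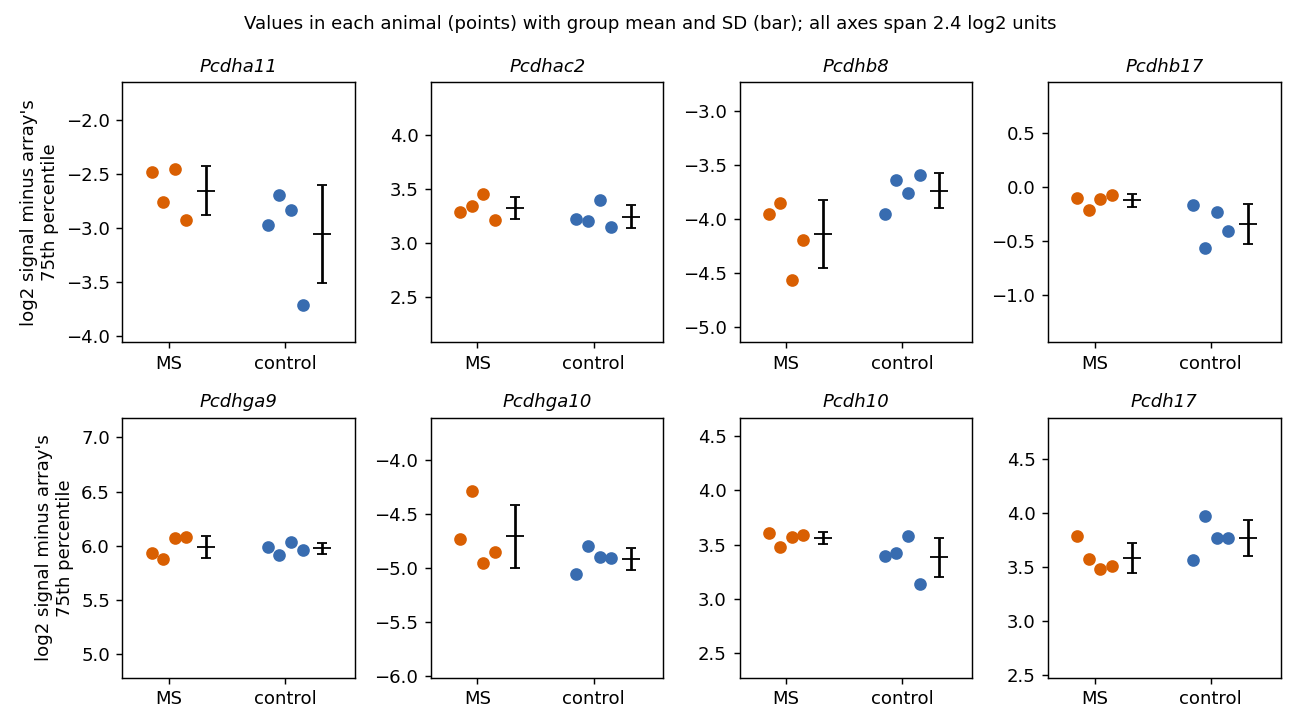
Log2 signal minus the array's 75th percentile (vertical axis) in each animal for 8 protocadherins, with MS animals left and control animals right in each panel. Points are animals and the bars beside them mean and SD of 4 animals, and the MS and control points overlap in every panel.

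With 1 animal left out at a time, the Pcdhb median ran over -0.15 to -0.02. This leaning of Pcdhb genes towards lower values in MS mPFC was smallest without control 8.4. That animal was the highest animal in 10 of 21 tested Pcdhb genes and the lowest in 0, with a median deviation of 0.21, while over all genes it was highest in 18.9%. MS 7.6 was lowest in 7 of 21 Pcdhb genes, against 10.04% of all genes. Without control 8.4, the Pcdhb median was -0.02, with 12 of 21 genes negative, and Pcdhb8 was no longer at an unadjusted p under 0.05. Over all probes, 49.2% then had a positive difference, against 54.9% with all 8 animals. Where the animal left out was the highest, the control mean had to fall, so nothing is concluded from this change. In the 5 animals low in bulb markers, 13 of 21 Pcdhb genes had a positive difference, beside 54.3% of all probes, and the Pcdhb median was 0.04. The part of the bulb and striatal markers in these values was not tested.

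**Figure D3:**
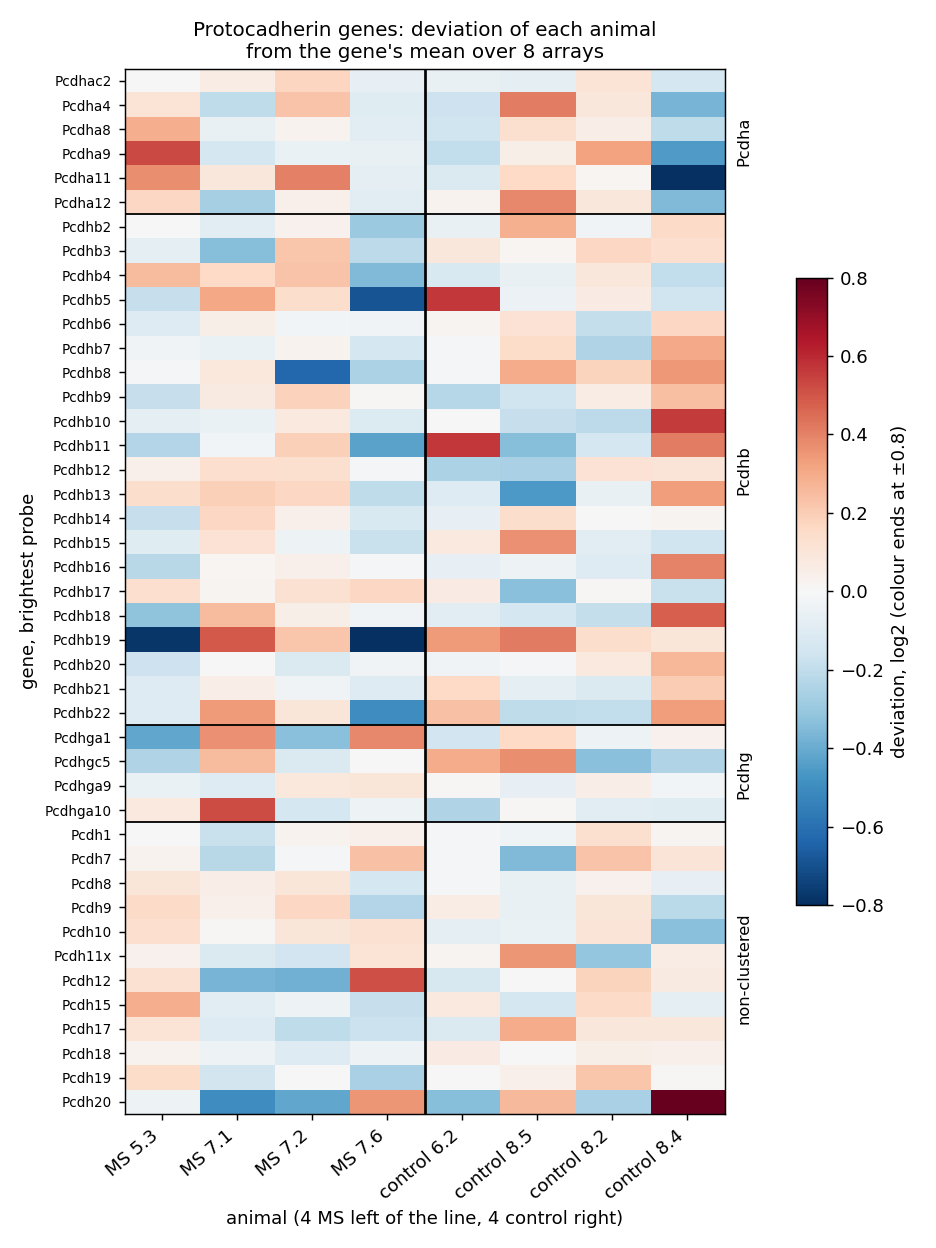
Deviation of each animal (columns, 4 MS left of the line and 4 control right) from the mean of each of the 43 tested genes (rows, by cluster), in log2 units, red above and blue below the mean. Each gene is shown by its brightest probe, and the column of control 8.4 is blue in all 6 Pcdha genes and red in most Pcdhb genes.

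Control 8.4 thus held the Pcdha and Pcdhb clusters on opposite sides, at medians of -0.36 and 0.21. No other animal had cluster medians so far apart. In MS 5.3 the order was turned, with 0.23 for Pcdha and -0.10 for Pcdhb. In MS 7.6 both medians were below 0 (-0.08 and -0.14), and in MS 7.2 both were above it (0.10 and 0.08). These orders followed neither group, and they are a description of 8 animals without a test.

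**Figure D4:**
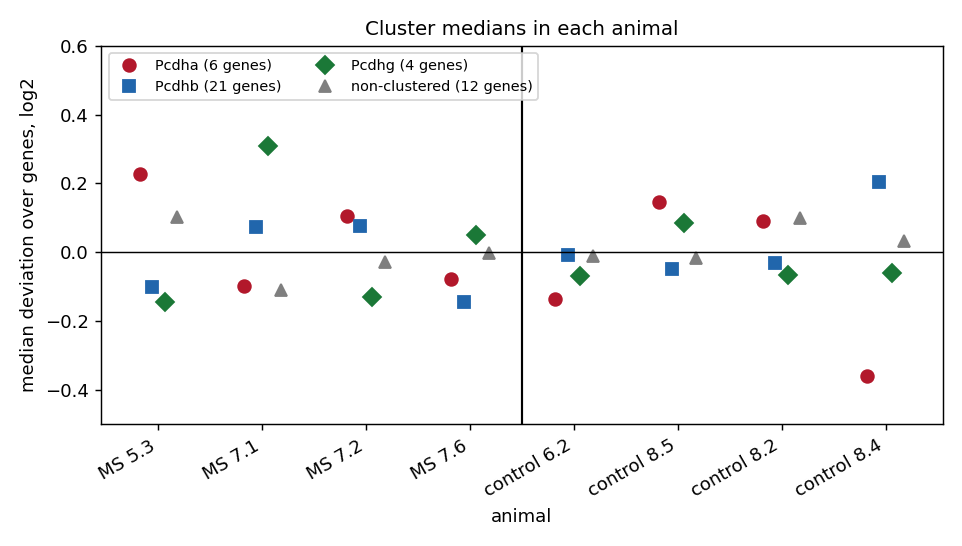
Median deviation over the tested genes of each cluster (vertical axis, log2) in each animal (horizontal axis, MS left of the line and control right). Pcdha (circles) and Pcdhb (squares) stand farthest apart in control 8.4, at -0.36 and 0.21.

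The Pcdhg cluster, whose products are needed for the survival and self-avoidance of many neurons, had 4 tested genes with a median difference of 0.01, 3 of them positive. Single animals turned this, since 1 of 4 was positive without MS 7.6 (median -0.04), 2 of 4 without MS 7.1 (median -0.03) and 4 of 4 without MS 5.3 (median 0.09). In the 5 animals low in bulb markers 1 of 4 was positive, with a median of -0.02. Its probes lay on chromosome 18 between 37823813 and 38001437 (mm9). The brightest Pcdhg probe, named Pcdhga9 and listed for 4 RefSeq transcripts, lay at the far end of the cluster, where the shared exons are. It read 5.93, 5.88, 6.07 and 6.08 in MS animals, against 5.99, 5.91, 6.04 and 5.96 in control animals. These 8 values were within 0.20 of each other, and the difference was 0.01 ± 0.08 (SE, n = 4 each), with a 95% interval of -0.17 to 0.19. A second probe listed for the same number of transcripts differed by 0.14 ± 0.19.

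Single Pcdhg isoforms gave wider errors. Pcdhga10 read -4.74, -4.29, -4.96 and -4.85 in MS animals and -5.05, -4.80, -4.90 and -4.91 in control animals, a difference of 0.21 ± 0.14. MS 7.1 was above the other 7 animals. The C-type gene Pcdhgc5 read -3.69, -3.20, -3.57 and -3.45 in MS animals, against -3.16, -3.08, -3.79 and -3.69 in control animals, with a difference of -0.05 ± 0.18 (SE, n = 4 each). Pcdhga1 differed by 0.00 ± 0.20. MS 7.1 was the animal with the highest Pcdhg median deviation, 0.31.

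The non-clustered genes varied less between animals of a group than the clustered ones. Their median within-group SD was 0.16, against 0.26 for Pcdha, 0.19 for Pcdhb and 0.26 for Pcdhg, and 0.16 for all genes. Differences in signal strength between the probes of these sets were not taken out of this comparison. Of the 12 genes, 8 had a negative difference, and the median was -0.06, or -0.04 without control 8.4 and -0.06 in the 5 animals low in bulb markers. Without MS 7.1, 6 genes were positive and 6 negative (median 0.01), and the same counts were found without MS 7.2 (median -0.01).

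Of the delta-1 family, Pcdh1 acts in adhesion of epithelial and neural cells. It read 0.27, 0.09, 0.29 and 0.31 in MS animals, against 0.26, 0.24, 0.40 and 0.29 in control animals, a difference of -0.05 ± 0.08. Pcdh7 differed by 0.01 ± 0.14, with values between -0.71 and -0.26 in MS animals and between -0.84 and -0.26 in control animals. Pcdh9, a protocadherin of cortical neurons, read 1.1, 0.99, 1.11 and 0.72 in MS animals and 1.01, 0.89, 1.04 and 0.73 in control animals, a difference of 0.06 ± 0.11. The lowest values were those of MS 7.6 and control 8.4.

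Pcdh11x, an X-linked delta-1 gene, read -1.33, -1.48, -1.51 and -1.25 in MS animals and -1.34, -1.003, -1.67 and -1.30 in control animals, a difference of -0.06 ± 0.14. Its 3 probes did not move together. The probe nearest the end of the gene (chromosome X, 118019923 to 118019982, mm9) read -3.33, -2.70, -2.90 and -1.11 in MS animals, against -3.14, -2.96, -3.60 and -3.70 in control animals. MS 7.6 stood alone at the top of that probe and carried its difference of 0.84 ± 0.43. The remaining probe differed by 0.22 ± 0.16.

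Probes of the non-clustered genes were designed against different parts of the transcripts, and 3 of them that hold an open reading frame over their full length are shown as examples of what the array read for genes with more than 1 probe. The array files do not say which probes are coding, and the open frame is a property of the letters alone. They are given in the direction of the transcript, all in lower case, since no base of them is singled out. The Pcdh10 probe (chromosome 3, plus strand, 45196739 to 45203246, mm9) is 60 bases long and spans 6508 bases of genome, so that it crosses at least 1 exon junction. The Pcdh11x probe lies at 117515420 to 117515479 on the plus strand of chromosome X, and the Pcdh9 probe at 93414821 to 93414880 on the minus strand of chromosome 14.
Pcdh10: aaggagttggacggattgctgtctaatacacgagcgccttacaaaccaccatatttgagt
Pcdh11x: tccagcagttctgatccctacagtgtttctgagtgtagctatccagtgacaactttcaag
Pcdh9: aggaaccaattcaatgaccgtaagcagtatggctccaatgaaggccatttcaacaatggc

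The Pcdh10 sequence is the brightest probe of that gene and gives the values reported for it. The Pcdh11x sequence is the probe with the difference of 0.22 ± 0.16, and the Pcdh9 sequence is a second probe, with a difference of 0.01 ± 0.12.

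Of the delta-2 family, Pcdh10 takes part in axon growth and in the removal of synapses through the proteasome. It read 3.60, 3.48, 3.57 and 3.59 in MS animals, against 3.39, 3.42, 3.58 and 3.14 in control animals. Control 8.4 was lowest and control 8.2 lay inside the MS range. The difference was 0.18 ± 0.10 (SE, n = 4 each), with an unadjusted p of 0.111 and an adjusted p of 0.9996 in limma, and a second probe differed by 0.11 ± 0.11.

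Pcdh17, which regulates presynaptic assembly in corticobasal ganglia circuits, differed the other way. It read 3.79, 3.58, 3.48 and 3.51 in MS animals and 3.56, 3.97, 3.77 and 3.77 in control animals, a difference of -0.18 ± 0.11 (SE, n = 4 each). MS 5.3 and MS 7.1 lay inside the control range. Pcdh19, an X-linked gene in which human mutations cause epilepsy, read 2.85, 2.57, 2.70 and 2.45 in MS animals, against 2.71, 2.75, 2.93 and 2.72 in control animals, a difference of -0.13 ± 0.11.

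The activity-regulated gene Pcdh8 (arcadlin) read 2.54, 2.49, 2.54 and 2.30 in MS animals and 2.42, 2.38, 2.48 and 2.37 in control animals. MS 7.6 alone was below the control group, and the difference was 0.05 ± 0.08. Pcdh18 had the smallest spread of the protocadherins, with -0.97, -1.04, -1.10 and -1.04 in MS animals and -0.93, -0.99, -0.95 and -0.95 in control animals. Of its MS values, 3 of 4 were below all control values, and the difference was -0.08 ± 0.07 (SE, n = 4 each), with an unadjusted p of 0.271 and an adjusted p of 0.9996 in limma.

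Of the remaining genes, Pcdh12 is an endothelial protocadherin and differed by -0.06 ± 0.20, with MS values between -5.16 and -4.26 and control values between -4.90 and -4.60. Pcdh15, a component of the tip link of sensory hair cells, differed by -0.01 ± 0.12 at its brightest probe. Its 5 tested probes, out of 7, gave differences between -0.06 and 0.07.

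Among the brightest probes, that of Pcdh20 varied more than that of any other tested non-clustered protocadherin. Pcdh20 read 0.45, -0.01, 0.07 and 0.84 in MS animals, against 0.15, 0.75, 0.23 and 1.43 in control animals. Control 8.4, MS 7.6 and control 8.5 were the highest 3, the same animals that were high in bulb markers. The difference was -0.30 ± 0.30 (SE, n = 4 each). In the 5 other animals the values were 0.45, -0.01 and 0.07 for MS and 0.15 and 0.23 for control, a difference of -0.02.

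Cdhr1, a cadherin once named protocadherin 21 and known from photoreceptors and the mitral cells of the olfactory bulb, was added after its values were seen. It read -1.15, -0.55, -0.61 and 1.67 in MS animals, against -1.44, 1.25, -1.14 and 2.96 in control animals, with a difference of -0.57 ± 1.01. The same 3 animals were highest. The part of the tissue that these markers mark in the values of Pcdh20 was not tested.

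**Figure D5:**
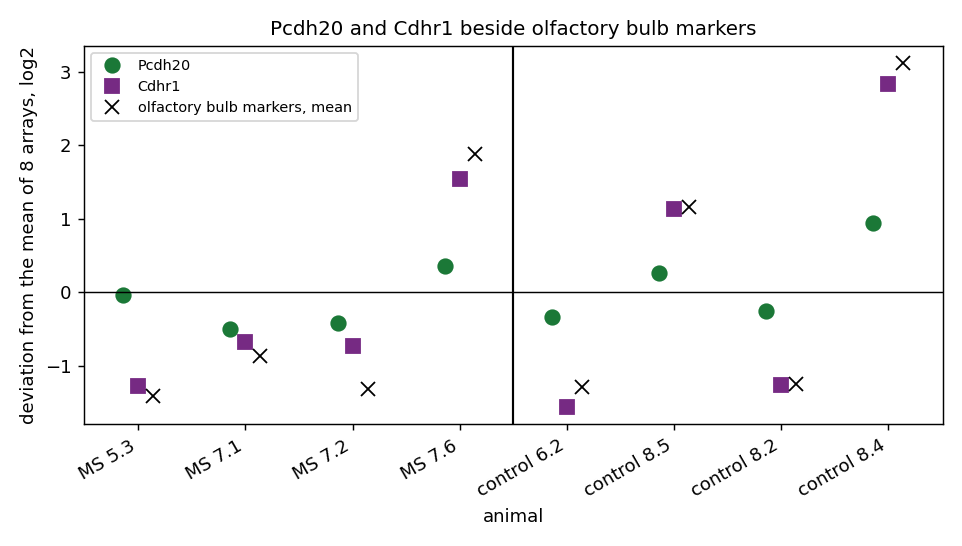
Deviation from the mean of 8 arrays (vertical axis, log2) in each animal (horizontal axis, MS left of the line and control right) for Pcdh20, Cdhr1 and the mean of 5 olfactory bulb markers. All 3 are highest in control 8.4, and MS 7.6 and control 8.5 come next.

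Genes that act on the clusters or together with protocadherins were not called either. Of 14 chromatin regulators of the clusters, 14 were tested, 8 with a positive and 6 with a negative difference. An unadjusted p under 0.05 in limma was found for 0 of them, beside 1.92% of the 23451 genes tested by their brightest probe. The cohesin subunit Smc1a differed by 0.07 and the DNA methyltransferase Dnmt3a by 0.04, and Dnmt3b, which sets methylation on the promoters of the clusters, by -0.20, with control 8.4 alone at -1.90 and the other 7 animals between -2.72 and -2.46. Without control 8.4 the difference of Dnmt3b was -0.04, and it was -0.03 in the 5 animals low in bulb markers. The cohesin subunit Stag1 differed by -0.13 and was highest in control 8.4. Without that animal its difference was -0.04, and it was -0.07 in the 5 animals low in bulb markers. Smc1a and Dnmt3a were also highest in control 8.4. Both differed by 0.13 without it, and by 0.17 and 0.07 in those 5 animals.

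Of 19 partners and processing enzymes, all were tested and 12 had a positive difference and 7 a negative one. At an unadjusted p under 0.05 in limma there were 0 of them, beside 1.92% of the 23451 genes tested by their brightest probe. Abi1, of the WAVE complex that binds protocadherin tails, differed by 0.18. The kinase Fyn differed by -0.26 and the receptor Ret by -0.19, and both were highest in control 8.4. Without that animal Fyn differed by -0.10 and Ret by 0.06, and in the 5 animals low in bulb markers by -0.22 and -0.13.

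Of 31 other cadherin superfamily genes, 27 were tested, 16 with a positive and 11 with a negative difference, and 0 passed an adjusted p under 0.05 in limma. Cdh4 (R-cadherin) was the 1 gene of these 27 at an unadjusted p under 0.05 in limma, beside 1.92% of the 23451 genes tested by their brightest probe. It read 1.17, 0.91, 0.96 and 0.93 in MS animals, against 1.12, 1.38, 1.14 and 1.33 in control animals. MS 5.3 lay inside the control range, and the difference was -0.25 ± 0.10. Cdh9 differed by -0.29, Cdh12 by 0.16 and Clstn1, a calsyntenin of the postsynaptic membrane, by 0.27. Control 8.4 was highest in Cdh9 and lowest in Clstn1. Without that animal Cdh9 differed by -0.19 and Clstn1 by 0.12, and in the 5 animals low in bulb markers by 0.004 and 0.07. Cdh4 lost its unadjusted call in both, at -0.22 and -0.12.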

How the data were processed

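Raw scanner files of 8 one-colour arrays on 1 slide were used. Per the file headers, the authors scanned an Agilent mouse design (028005) and made the intensity values with Agilent Feature Extraction 10.10.1.1, whose processed signal is background-subtracted. The methods name another design number, and the headers were followed. Probe coordinates are those of the headers' build, mm9. The authors' deposited log2 table of normalized values was used as an alternative only.

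Groups came from the sample labels. From 62976 spots, control spots (3671) and spots marked as outliers were left out, spots of a probe were averaged, and each array's 75th percentile was taken off its log2 processed signals. The 34098 probes that cleared background throughout either group were fitted in limma 3.58.1 without covariates (lmFit, then eBayes, two-sided, R 4.3.3), adjusted by Benjamini-Hochberg over all of them, with a threshold of 0.05. The fit was tested on simulated data. A gene was described by its brightest probe. Alternatives were normexp (offset 50), quantile normalization, other probe filters, slide row and animal number as blocks, robust moderation, kept outlier spots, the mean of a gene's probes, and each animal left out. Precision is limited by having 4 arrays a group. Probes were named by the array's gene names, and figures were drawn with matplotlib 3.10.9.

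Named genes were, in each cluster, the 3 tested genes with the smallest unadjusted p, all C-type and non-clustered genes on the array, genes whose groups did not overlap, and the 3 with the largest range. Of the other lists, up to 2 higher and 2 lower genes were named. A gene that this rule would name is not reported here. Members and lists were chosen with earlier results of these data known.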

Additional observations from a re-analysis of the deposited data

Results flagged for a closer look

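In 6 of 116 groups of 4 animals looked at over the tested probes of protocadherins, 1 animal stood far from the other 3, and chance alone gives about 1 in 20. Control 8.4 was high in Pcdhb16 (0.37, next -0.07) and in Pcdhb18 (-1.24, next -1.81). MS 7.6 was low in Pcdhb13 (-2.94, next -2.60) and in Pcdhb4 (-3.41, next -2.90). MS 5.3 was high in Pcdha9 (-1.15, next -1.74). MS 7.1 was high at the second probe of Pcdhga9 (1.05, next 0.82). Without MS 7.6, the MS and control values of Pcdhb4 no longer overlapped, as in 3.76% of all probes, and its difference was 0.29. Its unadjusted p was 0.018 and its adjusted p 0.983 in limma. The animal left out was the lowest value of that gene, so the MS mean had to rise and nothing is concluded from it.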

How the results depend on the processing

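Under all 18 alternatives set at the outset, and with only the 5 animals low in bulb markers, 0 protocadherin genes and 0 of all probes passed an adjusted p under 0.05. The count of protocadherins at an unadjusted p under 0.05 was 0 with normexp background correction (1.25% of all probes), 2 in the 5 animals (1.89%), 0 to 2 with 1 animal left out (1.58% to 4.51%), and 8 of 43 with the first part of the animal number as a random block, whose correlation was -0.22 and which put 11.3% of all probes there. The count of genes without overlap was 0 to 2 with 1 animal left out (2.49% to 6.17% of all probes) and 5 of 43 in the 5 animals (11.5%). With normexp the median over the 43 genes was 0.0026, and in the 5 animals it was 0.029, with a Pcdhb median of 0.038. The causes were not tested.

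Some differences of named genes changed sign. With normexp they were 0.020 for Pcdhgc5, 0.064 for Pcdh12 and 0.0083 for Pcdh15. Pcdhga9 was at -0.040 with quantile normalization and -0.001 in the authors' log2 table, where Pcdh7 was at -0.00875. Pcdhgc5 was at 0.012 with the random block. With the mean of all tested probes, Pcdh1 was at 0.034, Pcdh11x at 0.33, Pcdh15 at 0.017, Pcdh7 at -0.049 and Pcdh9 at -0.0020. In the 5 animals, Pcdhga9 was at -0.056, Pcdh11x at 0.063 and Pcdh7 at -0.18. With 1 animal left out, the differences ran over -0.17 to 0.067 for Pcdhgc5, -0.24 to 0.059 for Pcdh12, -0.11 to 0.051 for Pcdh15, -0.017 to 0.049 for Pcdhga9, -0.10 to 0.092 for Pcdh7 and -0.18 to 0.043 for Pcdh11x. Pcdhb8 ran over -0.50 to -0.26 and lost its unadjusted call without MS 7.2, MS 7.6, control 8.5, control 8.2 or control 8.4. It was -0.14 with normexp, -0.23 in the authors' table and -0.27 in the 5 animals, without a call. In the authors' table Pcdh17 was the 1 protocadherin at an unadjusted p under 0.05 in limma, at -0.26, beside 2.29% of all probes. Cluster medians ran over -0.0037 to 0.15 for Pcdha, -0.15 to -0.017 for Pcdhb, -0.038 to 0.085 for Pcdhg and -0.094 to 0.0070 for non-clustered genes with 1 animal left out. No paired analysis was possible because neither an animal number nor its first part was shared between the groups.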
